A study of Arabidopsis thaliana with 12 samples.

Results

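A set of 10 nuclear genes of carbon fixation is described here. It holds Rubisco activase (*RCA*, AT2G39730) and the 4 Rubisco small-subunit genes *RBCS1A* (AT1G67090), *RBCS1B* (AT5G38430), *RBCS2B* (AT5G38420) and *RBCS3B* (AT5G38410). It also holds 5 genes of Calvin cycle enzymes, *GAPA* (AT3G26650), *GAPB* (AT1G42970), *PRK* (AT1G32060), *SBPASE* (AT3G55800) and *HCEF1* (AT3G54050), the last for the plastid fructose bisphosphatase. These 10 loci, matched by locus identifier, are 10 of the 33323 loci in the deposited tables, and all 10 were among the 19059 loci with enough reads to be tested. Expression was measured by RNA sequencing in rosettes without roots of *Arabidopsis thaliana*, harvested at 25 days after growth in soil at 20 °C under 16 h of light and 8 h of dark. There were 4 genotypes with 3 libraries each, and each library was a pool of about 10 plants. Col-0 is the wild type, and cdk8-1 is mutant for *CDK8*, which encodes a kinase that associates with the Mediator complex of transcription. The jazD line is a higher-order mutant that lacks 10 members of the JAZ family, repressors of jasmonate-responsive transcription, and jazD cdk8-1 combines both. For the single alleles and the hour of harvest, no detail is given in the sources used here. By its title the series asks how CDK8 bears on the expression of defence genes in jazD; carbon-fixation genes lie outside that title.

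Rubisco fixes CO2 in the chloroplast stroma and is built from a large subunit encoded in the plastid and small subunits encoded by the nuclear *RBCS* genes. Rubisco activase removes inhibitory sugar phosphates from its active site and so keeps the enzyme switched on in the light. In the rest of the Calvin cycle, the A and B subunits of the plastid glyceraldehyde-3-phosphate dehydrogenase reduce the fixed carbon, 2 bisphosphatases regenerate sugar phosphates, and phosphoribulokinase remakes the substrate of Rubisco. The gene of the large subunit was not found among the loci of the deposited tables, so it could not be analysed here.

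The 4 small-subunit genes have close sequences, which bears on how reads were divided among them. In the RefSeq TAIR10.1 annotation, matched by locus identifier, *RBCS1A* lies alone on chromosome 1 (chr1:25048158-25049667, minus strand). The other copies are neighbours on the minus strand of chromosome 5, *RBCS3B* at chr5:15376988-15378642, *RBCS2B* at chr5:15380907-15382071 and *RBCS1B* at chr5:15383167-15385320. Over the annotated coding sequence *RBCS1B* and *RBCS2B* were 97.3% identical, *RBCS2B* and *RBCS3B* 94.3% and *RBCS1B* and *RBCS3B* 94.1%, with a shared run of 230 bases in the last pair. *RBCS1A* was 89.9% identical to *RBCS1B*, 90.1% to *RBCS2B* and 87.7% to *RBCS3B*. A stretch of 60 coding bases near the 3′ end is shown because it tells *RBCS1A* from the others but not the others from each other. It ends 9 bases before the end of the coding sequence in *RBCS1A* and 12 bases before it in the rest. Capitals mark the 2 positions at which the copies differ, and each line reads 5′ to 3′ on the gene's strand, at chr1:25048474-25048533, chr5:15384362-15384421, chr5:15381215-15381274 and chr5:15377513-15377572 in that order.
RBCS1A: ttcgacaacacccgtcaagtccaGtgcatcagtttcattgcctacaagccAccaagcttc
RBCS1B: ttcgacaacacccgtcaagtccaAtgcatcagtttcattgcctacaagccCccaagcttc
RBCS2B: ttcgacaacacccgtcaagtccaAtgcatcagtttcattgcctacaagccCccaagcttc
RBCS3B: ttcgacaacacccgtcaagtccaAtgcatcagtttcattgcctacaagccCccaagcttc
A read from such a stretch is divided among the chromosome 5 copies by estimation, so each result for a single copy is given beside the sum of the copies.

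The regions before the start codons were searched for 2 motifs that are known from light-responsive plant promoters. The G-box was taken as CACGTG, which reads the same on both strands, and the I-box as GATAAG on either strand, in the 500 bases before the start codon of the longest annotated coding sequence. G-box letters occurred in 6 of the 10 genes, against 9.30% of the 27443 genes with such a window, and I-box letters in 9 of the 10, against 23.5%. The G-box matches are shown because they set *RBCS1A*, *RBCS2B*, *RBCS3B*, *RCA*, *SBPASE* and *HCEF1* apart from *RBCS1B*, *GAPA*, *GAPB* and *PRK*, none of which held those letters. Each window has 30 bases of TAIR10.1 and is written 5′ to 3′ on the gene's strand, with the motif in capitals. They lie at chr1:25049491-25049520, chr5:15382177-15382206, chr5:15378506-15378535, chr2:16573579-16573608, chr3:20709498-20709527 and chr3:20016803-20016832, with the last pair on the plus strand.
RBCS1A: ggaattatcttcCACGTGgcattattccag
RBCS2B: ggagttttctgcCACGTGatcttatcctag
RBCS3B: ggagttttctgcCACGTGgccttatcctag
RCA: ataaacatattcCACGTGgaccaatcaaaa
SBPASE: ttcagttactgcCACGTGtcactctgaccg
HCEF1: taagagcaaagcCACGTGtcataacacaag
The motif's last base lay 254 bases before the first base of the start codon in *RBCS1A*, 211 in *RBCS2B*, 212 in *RBCS3B*, 246 in *RCA*, 125 in *SBPASE* and 131 in *HCEF1*. No annotated transcript reached the windows of *RBCS2B* and *HCEF1*, whereas at least 1 annotated transcript of each of the other 4 genes overlapped its window. *RBCS1B* held I-box letters only, as 2 matches that share 1 base (chr5:15385308-15385337, minus strand, the first match in capitals), and *SBPASE* held no I-box letters.
RBCS1B: tcacaaaagaaaGATAAGataagggtgtca
The windows of *RBCS2B* and *RBCS3B*, neighbours on chromosome 5, are nearly alike, so their matches are not independent counts beside the share of all genes. These matches describe letters in the window and were not tested for binding.

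Library totals ran from 17583465 to 21030372 counts, and the 10 genes had between 11926 and 499335 counts in a library. The coefficient of variation of a gene's CPM within a genotype was 1.53% to 8.74%. *CDK8*, the targeted gene, had 17.4 to 20.3 CPM (counts scaled to a common library size, with TMM factors) in Col-0 and 20.1 to 21.1 in jazD, against at most 2.74 in cdk8-1 and 3.30 in jazD cdk8-1, as the labels state. Floral marker genes summed to at most 2.51 CPM in any library. Root markers summed to between 47.1 and 63.4 CPM, and the root-hair gene *EXPA7* was at 0 throughout. In jazD the floral gene *AG* was lower than in Col-0, at -1.47, as were the root markers *SCR* and *SHR*, at -0.33 and -0.61, while *NRT2.1* was higher at 2.14 and *GL2* was not called at 0.09. The libraries are whole rosettes, so fewer cells of a type and less RNA per cell cannot be told apart.

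In the wild type these were among the most abundant transcripts of the loci in the deposited tables, which do not hold the large-subunit gene. Per length, in TPM, *RBCS1A* was first of the 10 at 25497 ± 1753 (SD, n = 3) and ranked 2 among all loci. *RBCS1B* followed at 11450 ± 107, *RBCS3B* at 8373 ± 146, *RBCS2B* at 8175 ± 37.0 and *RCA* at 5461 ± 212, each apart from its neighbours in all 3 libraries. *GAPB* at 1477 ± 45.7, *GAPA* at 1442 ± 35.6 and *PRK* at 1418 ± 7.33 TPM overlapped as neighbours in that order. *HCEF1* at 733 ± 23.0 and *SBPASE* at 663 ± 20.5 TPM closed the order, without overlap, and *SBPASE* still ranked 165 among all loci.

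That order changed in its middle. In jazD *GAPB* fell behind *GAPA* and *PRK*, with 1005 ± 6.57 TPM against 1209 ± 14.1 and 1033 ± 23.4 (SD, n = 3), and the 3 did not overlap. In cdk8-1 *GAPA* stood above *GAPB* without overlap, and *HCEF1* and *SBPASE* overlapped. *RBCS1A* ranked first of all loci in cdk8-1 and second in the other genotypes, while *RCA* ranked 24 in Col-0, 22 in cdk8-1, 44 in jazD and 31 in jazD cdk8-1. Together the 10 genes made up 6.31% to 6.64% of all TPM in the Col-0 libraries and 7.19% to 7.31% in cdk8-1. They made up 4.58% to 5.06% in jazD and 5.77% to 6.11% in jazD cdk8-1, so in TPM the ranges of the genotypes did not overlap. In summed CPM with TMM factors, Col-0 at 51930 to 55919 and cdk8-1 at 54682 to 59205 overlapped.

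**Figure D1:**
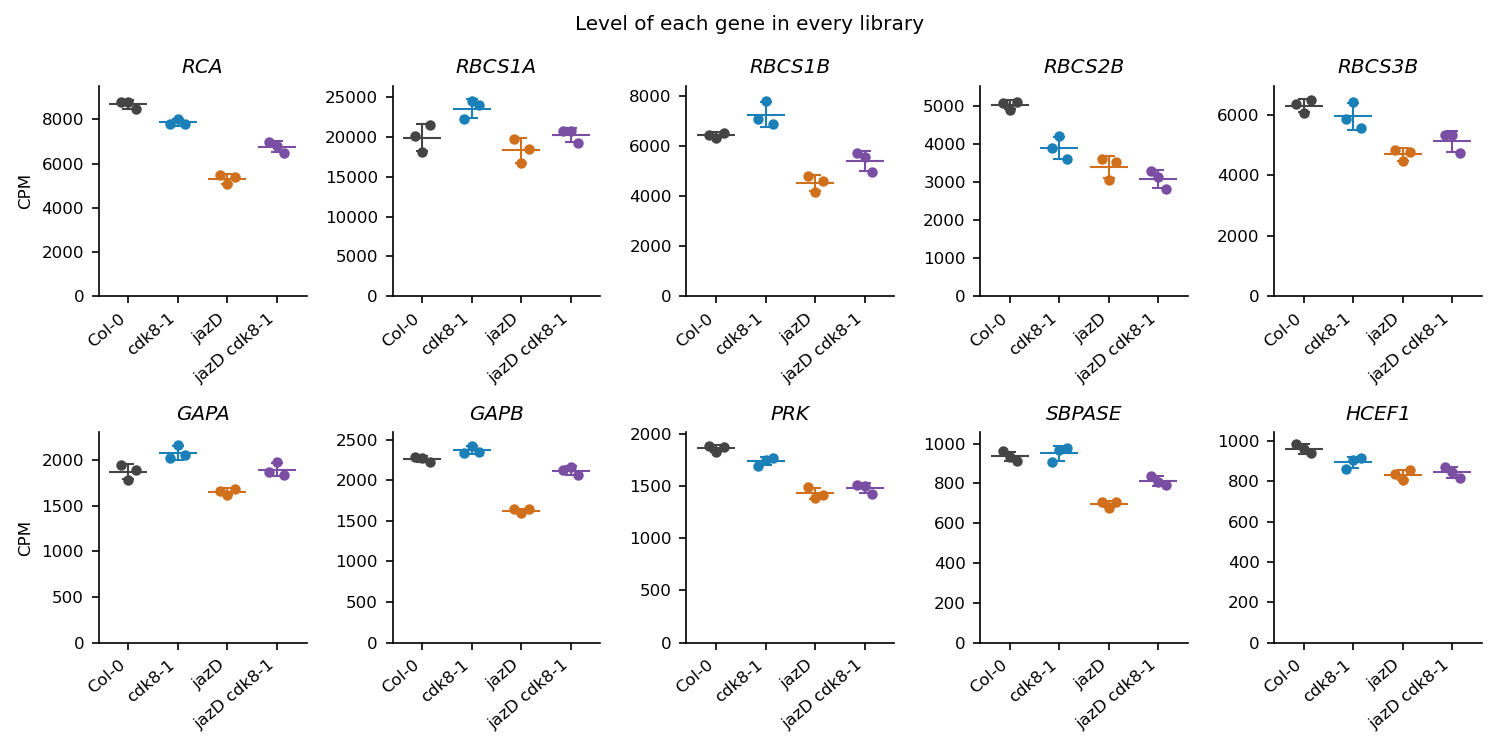
Level of each of the 10 genes in every library, as CPM on a linear axis from 0, by genotype. Points are libraries, and the horizontal mark and bar are the mean and SD of 3. The jazD libraries have the lowest mean for every gene except *RBCS2B*, whose lowest mean is in jazD cdk8-1.

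Loss of the JAZ repressors lowered 9 of the 10 genes relative to Col-0. *RCA* fell the most, by 0.71 on the log2 scale, followed by *RBCS2B*, *RBCS1B* and *GAPB*. None rose, and *RBCS1A*, the most abundant, did not pass the test. The median over the 10 was -0.43, with a range of -0.71 to -0.12, beside 0.00 over all genes tested. By edgeR's quasi-likelihood test at a Benjamini-Hochberg adjusted p of 0.05, 20.9% of all genes tested were called lower in jazD and 21.8% higher. The Col-0 and jazD libraries did not overlap in 9 of the 10 genes, all lower in jazD, the exception again being *RBCS1A*. Among all genes tested the libraries were likewise separate in 25.5% in the lower and 26.0% in the higher direction.

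*RCA* stood at 8782, 8796 and 8461 CPM in Col-0 and at 5489, 5068 and 5403 in jazD. Every jazD library lay far below every Col-0 library, and the log2 difference was -0.71 ± 0.05 (SE, edgeR adjusted p = 9.2e-11). *GAPB* had 2287, 2273 and 2222 CPM in Col-0 and 1639, 1590 and 1639 in jazD, a log2 difference of -0.48 ± 0.04 (SE, edgeR adjusted p = 5.11e-09). *GAPA*, its partner subunit, had 1946, 1782 and 1895 CPM in Col-0 and 1669, 1617 and 1684 in jazD. Its groups were separate too, but the difference was smaller, at -0.18 ± 0.05 (SE, edgeR adjusted p = 0.00384).

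Transcripts for the enzymes that regenerate the acceptor of CO2 were lower as well. *SBPASE*, the gene of sedoheptulose-1,7-bisphosphatase, had 960.52, 931.96 and 913.81 CPM in Col-0 and 705.9, 677.72 and 706.3 in jazD. The difference was -0.43 ± 0.04 (SE, edgeR adjusted p = 7.57e-08). *PRK*, for phosphoribulokinase, went from 1882, 1825 and 1877 CPM to 1491, 1386 and 1413, a log2 difference of -0.38 ± 0.04 (SE, edgeR adjusted p = 4.01e-07). *HCEF1* showed the smaller step of the bisphosphatases, from 982.32, 958.56 and 937.1 CPM to 834.19, 803.74 and 855.78, at -0.21 ± 0.04 (SE, edgeR adjusted p = 0.000558).

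Among the small-subunit genes the chromosome 5 copies fell and *RBCS1A* was not called. *RBCS2B* had 5089, 4900 and 5105 CPM in Col-0 and 3602, 3056 and 3530 in jazD, a difference of -0.57 ± 0.07 (SE, edgeR adjusted p = 4.38e-07). *RBCS1B* had 6450, 6316 and 6546 CPM against 4818, 4162 and 4612, at -0.51 ± 0.06 (SE, edgeR adjusted p = 9.31e-07). *RBCS3B* had 6354, 6081 and 6503 CPM against 4852, 4466 and 4773, at -0.43 ± 0.06 (SE, edgeR adjusted p = 4.89e-06). In all 3, the highest jazD library was below the lowest Col-0 library.

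*RBCS1A* had 20177, 18066 and 21460 CPM in Col-0 and 19768, 16731 and 18429 in jazD. The groups overlapped, and the difference was -0.12 ± 0.07 (SE, edgeR adjusted p = 0.159). It was called lower, at -0.19, without replicate 2 of Col-0 (adjusted p = 0.0314), at -0.15 with library totals in place of TMM (adjusted p = 0.0236) and at -0.20 with limma on log2(TPM + 0.1) (adjusted p = 0.0122). Summed over the 4 copies, *RBCS* was lower in jazD by edgeR at -0.28 ± 0.06 (SE, adjusted p = 0.000928). The chromosome 5 copies summed alone gave -0.49 (adjusted p = 1.51e-06).

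The composition of the *RBCS* pool shifted with these steps. *RBCS1A* made up 51.1% to 54.2% of the summed *RBCS* CPM in Col-0 and 58.8% to 59.8% in jazD. *RBCS2B* made up 12.9% to 13.9% in Col-0 and 10.8% to 11.3% in jazD, and *RBCS1B* 16.5% to 17.9% against 14.6% to 14.7%. For each of these copies the genotypes did not overlap. *RBCS3B* went from 16.4% to 17.2% in Col-0 to 14.7% to 15.7% in jazD, also without overlap.

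**Figure D2:**
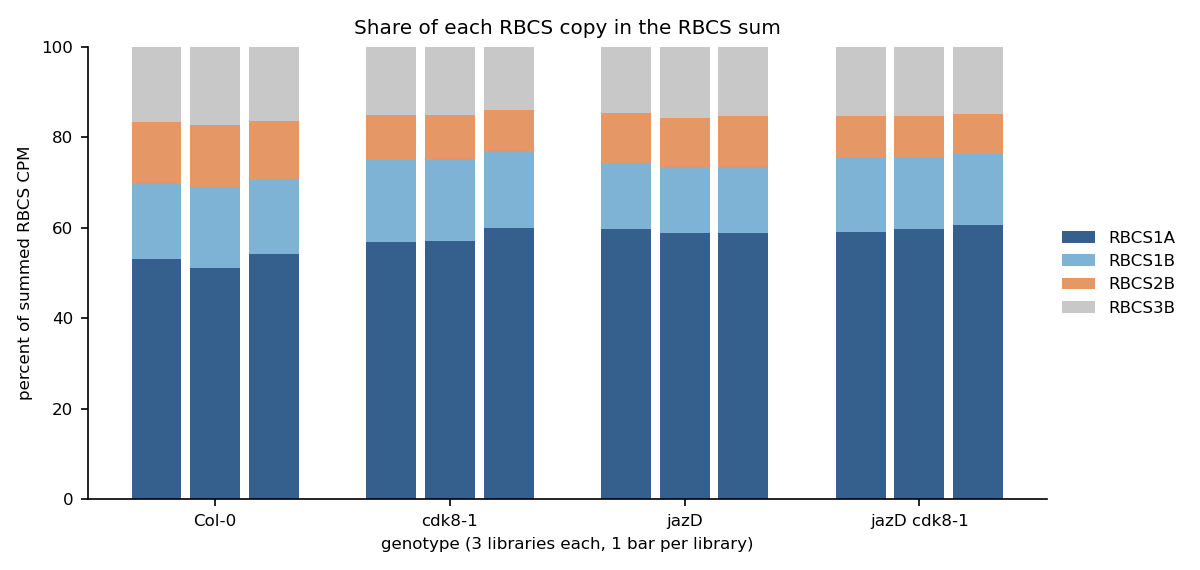
Share of each *RBCS* copy in the summed *RBCS* CPM, in percent, with 1 stacked bar per library and 3 libraries per genotype. *RBCS1A* holds 51.1% to 54.2% in Col-0 and at least 56.9% in every mutant library.

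Within the fixation machinery the ratios between genes changed too. *RCA* had 21.4 to 24.9 CPM per 100 CPM of summed *RBCS* in Col-0 and 16.6 to 17.8 in jazD. In cdk8-1 this ratio was 18.7 to 19.9, also below Col-0. *GAPA* over *GAPB* in CPM was 0.784 to 0.853 in Col-0 and 1.02 to 1.03 in jazD, the narrowest range of the 4 genotypes. In cdk8-1 it was 0.866 to 0.895, also above Col-0. With TPM in place of CPM the same ratio was 0.923 to 1.01 in Col-0, and the jazD libraries were again the highest. The *GAPA* ratio leaves out *GAPA2* (AT1G12900), 76.8% identical to *GAPA* over the coding sequence. Its mean was 1769 CPM in Col-0 and 1474 in jazD. These ratios are described without a test.

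**Figure D3:**
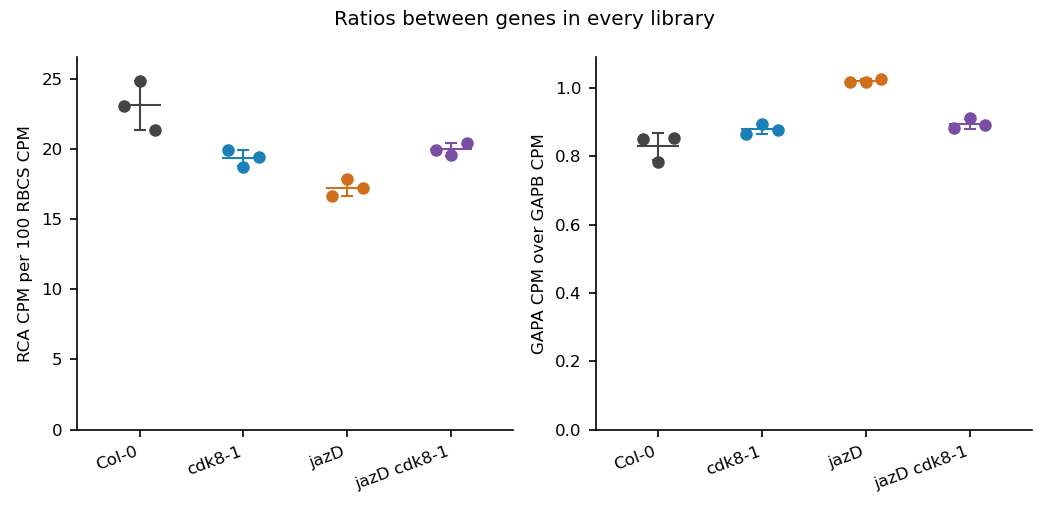
*RCA* CPM per 100 CPM of summed *RBCS* (left) and *GAPA* CPM over *GAPB* CPM (right) in every library, on linear axes from 0. Points are libraries, and marks and bars are the mean and SD of 3; jazD has the lowest *RCA* ratio (16.6 to 17.8) and the highest *GAPA* ratio (1.02 to 1.03).

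With intact JAZ genes, loss of CDK8 moved the 10 genes little and in both directions. *RBCS1A*, *RBCS1B* and *GAPA* rose and *RBCS2B* and *RCA* fell, by at most 0.37 on the log2 scale. The median was -0.03 and the range -0.37 to 0.24, beside a median of 0.00 over all genes. Over all genes tested, 11.7% were called higher in cdk8-1 than in Col-0 and 13.8% lower. Leaving out replicate 2 of Col-0 reduced the 5 calls to 1, that of *RBCS2B*.

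*RBCS2B* had 3886, 4201 and 3617 CPM in cdk8-1, below all Col-0 libraries, and the difference was -0.37 ± 0.07 (SE, edgeR adjusted p = 0.000231). *RBCS1A* had 22244, 24477 and 23984 CPM, above all Col-0 libraries, at 0.24 ± 0.07 (SE, edgeR adjusted p = 0.00989), and 0.18 without replicate 2 of Col-0 (adjusted p = 0.0639). Neighbouring *RBCS1B*, with 7078, 7824 and 6874 CPM, also lay above Col-0, at 0.17 ± 0.06 (SE, edgeR adjusted p = 0.0446), a call lost in 7 of the 12 fits that left out 1 library. These were the fits without any 1 of the Col-0 replicates, replicate 1 or 2 of cdk8-1, replicate 3 of jazD or replicate 2 of jazD cdk8-1, with values of 0.12 to 0.19. With TMM factors these opposite steps of single copies did not show in their sum. Over the 4 copies *RBCS* differed by 0.11 ± 0.06 (SE, edgeR adjusted p = 0.219), and over the chromosome 5 copies by -0.05 (adjusted p = 0.573). This depended on scaling: in TPM the sum of the 4 copies was 51604 to 55515 in Col-0 and 60407 to 61838 in cdk8-1, without overlap. *RBCS3B* had 5872, 6441 and 5559 CPM and overlapped with Col-0, at -0.08 ± 0.06 (SE, edgeR adjusted p = 0.333).

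The *RBCS2B* share of the *RBCS* sum was 9.04% to 9.94% in cdk8-1 and that of *RBCS1A* 56.9% to 59.9%. The first lay below the share in both Col-0 and jazD, and the second above that in Col-0. How far the division of reads among near-identical copies enters these shares was not tested.

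*RCA* had 7784, 8041 and 7773 CPM in cdk8-1, a difference of -0.14 ± 0.05 from Col-0 (SE, edgeR adjusted p = 0.0312). The groups did not overlap, but the call was lost with library totals in place of TMM (-0.07, adjusted p = 0.165), with limma on either TPM scale (-0.06, adjusted p = 0.279 and 0.287), with only the compared genotypes in the fit (-0.14, adjusted p = 0.0677), with the replicate number as a block (-0.14, adjusted p = 0.0505) and in 6 of 12 fits without 1 library, those without any 1 of the Col-0 replicates, replicate 1 or 3 of cdk8-1 or replicate 3 of jazD (-0.16 to -0.13). *GAPA* had 2022, 2168 and 2063 CPM, above all Col-0 libraries, at 0.15 ± 0.05 (SE, edgeR adjusted p = 0.0188). That call was lost without replicate 2 of Col-0 (adjusted p = 0.0968) and without replicate 2 of cdk8-1 (adjusted p = 0.0729). *GAPB*, *PRK*, *SBPASE* and *HCEF1* were not called, with differences of 0.07, -0.10, 0.02 and -0.10. *GAPB* was called higher with library totals (0.14, adjusted p = 0.00365) and with limma on TPM, which also called *SBPASE* (0.11, adjusted p = 0.0322). Of these, the libraries of *SBPASE* alone overlapped between the genotypes: its cdk8-1 values were 906.07, 968.86 and 977.87 CPM. Among all 19059 genes tested, the cdk8-1 and Col-0 libraries were likewise separate in 3724 in the lower and 3435 in the higher direction.

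In the jazD background, loss of CDK8 raised 5 of the 10 genes and lowered none. *GAPB* and *RCA* rose the most, followed by *RBCS1B*, *SBPASE* and *GAPA*. The median was 0.17 and the range -0.14 to 0.38, beside 0.00 over all genes tested. In the same comparison 16.9% of all genes tested were called higher and 19.0% lower. With library totals in place of TMM, or with limma on TPM, 9 of the 10 were called higher and *RBCS2B* alone was not, while the median of all genes moved to 0.07 with library totals and to 0.13 or 0.15 with TPM.

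*GAPB* had 2120, 2167 and 2064 CPM in jazD cdk8-1, above every jazD library, with a difference of 0.38 ± 0.04 (SE, edgeR adjusted p = 2.15e-07). *RCA* had 6982, 6808 and 6496 CPM, likewise apart from jazD, at 0.35 ± 0.05 (SE, edgeR adjusted p = 5.93e-06). *SBPASE* had 839.43, 805.99 and 790.39 CPM, at 0.22 ± 0.04 (SE, edgeR adjusted p = 0.00042). For each of these the jazD cdk8-1 libraries stood between those of jazD and those of Col-0.

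*GAPA* had 1873, 1977 and 1843 CPM in jazD cdk8-1, within or above the range of Col-0, and differed from jazD by 0.20 ± 0.05 (SE, edgeR adjusted p = 0.00227). *RBCS1B* had 5733, 5548 and 4977 CPM, between the 2 reference genotypes, at 0.26 ± 0.06 (SE, edgeR adjusted p = 0.00245). The sum of the 4 *RBCS* copies was not called, at 0.13 ± 0.06 (SE, edgeR adjusted p = 0.113), nor was that of the chromosome 5 copies, at 0.11 (adjusted p = 0.184). In TPM, however, the sum of the 4 copies was 38441 to 43087 in jazD and 47959 to 51152 in jazD cdk8-1, without overlap. *GAPA* over *GAPB* in CPM was 0.883 to 0.912, below the jazD range, and *RCA* per 100 CPM of *RBCS* was 19.6 to 20.4, above it. Both overlapped the ranges of cdk8-1, at 0.866 to 0.895 and 18.7 to 19.9.

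The other 5 genes did not pass the test against jazD. *PRK* had 1514, 1502 and 1423 CPM, overlapping jazD, with a difference of 0.05 ± 0.04 (SE, edgeR adjusted p = 0.413). *HCEF1* had 871.96, 845.5 and 816.79 CPM and also overlapped, at 0.02 ± 0.04 (SE, edgeR adjusted p = 0.716). *RBCS3B*, with 5328, 5335 and 4728 CPM, and *RBCS1A*, with 20718, 20787 and 19240 CPM, differed by 0.13 and 0.15 (edgeR adjusted p = 0.101 and 0.1). *RBCS3B* was called higher without replicate 3 of jazD cdk8-1 (0.18, adjusted p = 0.0251), and *RBCS1A* without replicate 1 of jazD (0.20, adjusted p = 0.0478). *RBCS2B* had 3286, 3134 and 2823 CPM, the lowest mean of its 4 genotypes, at -0.14 ± 0.07 from jazD (SE, edgeR adjusted p = 0.104). It was called lower without replicate 2 of jazD, at -0.22 (adjusted p = 0.0115), without replicate 1 of jazD cdk8-1, at -0.20 (adjusted p = 0.0468), and with no count filter, at -0.15 (adjusted p = 0.0379).

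Whether loss of CDK8 acted differently in the 2 backgrounds was tested as an interaction, taking the effect of cdk8-1 with JAZ genes intact from its effect in jazD. It was called for *RCA*, *GAPB* and *SBPASE*, in each case as a higher value in jazD. Over all genes tested 8.16% had a higher and 8.39% a lower interaction, and the median over the 10 was 0.17 beside 0.00 over all. For *RCA* the effect was -0.14 with intact JAZ genes and 0.35 in jazD, a difference of 0.49 ± 0.07 (SE, edgeR adjusted p = 2.62e-05). For *GAPB* the effects were 0.07 and 0.38, a difference of 0.32 ± 0.06 (SE, edgeR adjusted p = 0.000625). For *SBPASE* they were 0.02 and 0.22, a difference of 0.20 ± 0.06 (SE, edgeR adjusted p = 0.0321), and this call was lost in 8 of 12 fits without 1 library (0.16 to 0.20), all but those without replicate 2 of Col-0, replicate 2 or 3 of cdk8-1 or replicate 3 of jazD cdk8-1. Without replicate 2 of cdk8-1 or replicate 3 of jazD cdk8-1, *RBCS2B* (0.28 and 0.29) and *RBCS3B* (0.27 in both) were called as well. Neither sum of the copies was called, at 0.02 ± 0.09 over all 4 (SE, edgeR adjusted p = 0.914) and 0.17 ± 0.09 over the chromosome 5 copies (SE, edgeR adjusted p = 0.228). *GAPA* rose in both backgrounds, by 0.15 and 0.20, and its interaction was 0.04 ± 0.07 (SE, edgeR adjusted p = 0.729).

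**Figure D4:**
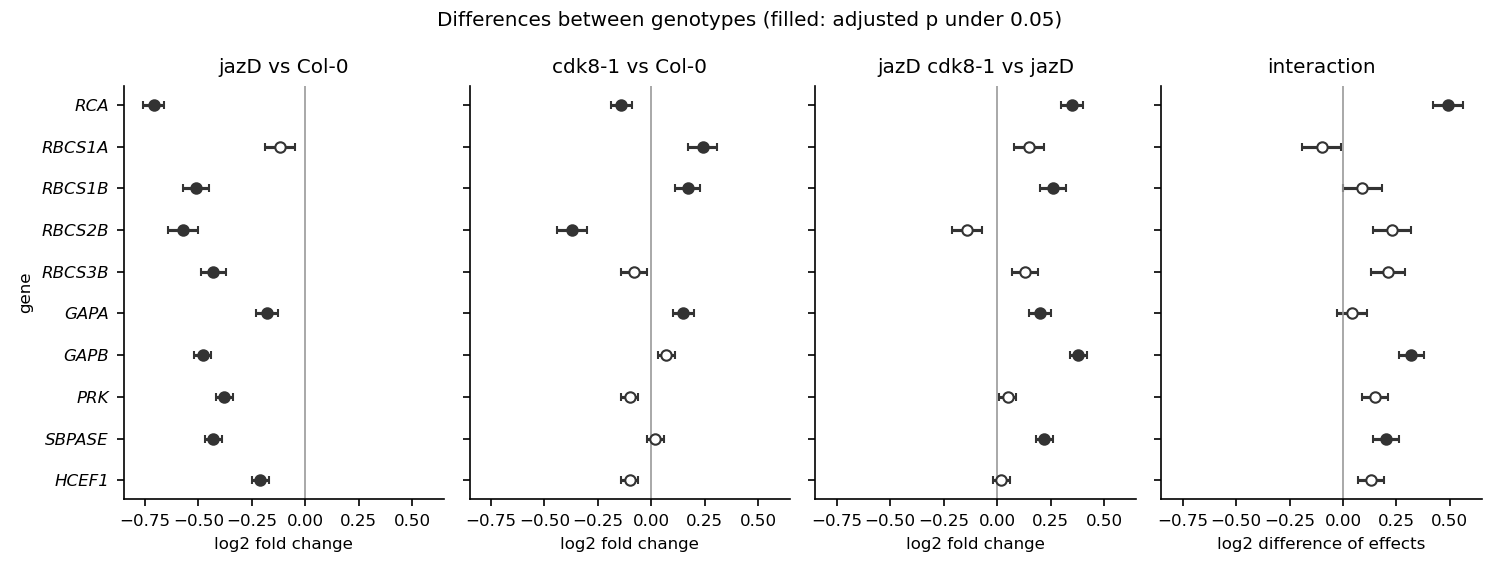
Log2 differences of the 10 genes in 3 comparisons of genotypes and in the interaction, each with its SE from edgeR. Filled points passed an adjusted p of 0.05: 9 fell in jazD against Col-0, 3 rose and 2 fell in cdk8-1 against Col-0, 5 rose in jazD cdk8-1 against jazD, and 3 had a higher interaction.

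Seen from the other side, loss of the JAZ genes still lowered most of these genes when CDK8 was absent. In jazD cdk8-1 against cdk8-1, 9 of the 10 were called lower and *HCEF1* was not, with a median of -0.22 and a range of -0.42 to -0.08. Over all genes tested 11.2% were called lower and 12.7% higher in this comparison. *RBCS1B* had the largest step, at -0.42 ± 0.06 (SE, edgeR adjusted p = 2.78e-05), and the *RBCS* sum fell by 0.26 on the log2 scale (adjusted p = 0.00364). *RCA* fell by 0.22 (edgeR adjusted p = 0.00161). *GAPA*, *RBCS1A* and *RBCS3B* were the weaker calls, at -0.14, -0.22 and -0.22 (edgeR adjusted p = 0.0384, 0.0207 and 0.0101). They were lost in 4, 3 and 2 of 12 fits without 1 library, among them in each case those without replicate 2 of cdk8-1 or replicate 3 of jazD cdk8-1 (*GAPA* -0.11 and -0.12, *RBCS1A* -0.19 and -0.18, *RBCS3B* -0.16 in both). *GAPA* was also lost without replicate 3 of cdk8-1 (-0.14) or replicate 1 of jazD cdk8-1 (-0.13), and *RBCS1A* without replicate 3 of cdk8-1 (-0.21). With only the compared genotypes in the fit *GAPA* was not called either (-0.14, adjusted p = 0.0548).

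Against Col-0, jazD cdk8-1 had 7 of the 10 called lower and none higher, with a median of -0.23. Of all genes tested 16.1% were called lower and 16.3% higher. *RBCS2B* was the lowest, at -0.71 ± 0.07 (SE, edgeR adjusted p = 3.21e-08), followed by *RCA* at -0.36 ± 0.05 (SE, edgeR adjusted p = 4.24e-06) and *PRK* at -0.33 ± 0.04 (SE, edgeR adjusted p = 4.67e-06). *RBCS1A* and *GAPA* both stood at 0.02, with overlapping libraries, and *GAPB* was not called at -0.09 ± 0.04 (SE, edgeR adjusted p = 0.0849). The *RBCS* sum was not called at -0.15 (adjusted p = 0.0677), whereas the chromosome 5 copies summed alone were lower at -0.38 (adjusted p = 6.23e-05). These comparisons share libraries with each other, so their counts are given side by side and not as independent results.

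Transcripts for other enzymes of the cycle followed in part. Of 14 other Calvin cycle genes with *CP12*, 9 fell and 2 rose in jazD against Col-0, with a median of -0.16. *FBA1* and *FBA2*, for plastid aldolases, fell by 0.65 and 0.49 on the log2 scale (edgeR adjusted p = 6.35e-09 and 5.16e-08). The plastid phosphoglycerate kinases at AT1G56190 and AT3G12780 fell by 0.29 and 0.24 (edgeR adjusted p = 7.47e-06 and 6.29e-05). *CP12-2*, for a small protein that binds glyceraldehyde-3-phosphate dehydrogenase and phosphoribulokinase in the dark, and *TKL2*, for a transketolase, rose by 0.22 and 0.26 (edgeR adjusted p = 0.0042 and 0.0183). Their more abundant paralogues did not rise. *CP12-1*, at 762 CPM in Col-0 against 182 for *CP12-2*, was not called at -0.02 (edgeR adjusted p = 0.859). *TKL1*, at 2191 CPM against 13.1 for *TKL2*, fell by 0.14 (edgeR adjusted p = 0.00599). The scarce *CP12-3* was not called at 0.32 (edgeR adjusted p = 0.175). In cdk8-1 3 of the 14 rose and none fell, and in jazD cdk8-1 against jazD 5 rose and 2 fell. *FBA1* was among the risers in both, at 0.29 and 0.54 (edgeR adjusted p = 0.000508 and 1.38e-07).

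Photorespiration recycles the product that Rubisco makes when it takes up oxygen in place of CO2. Of 13 photorespiratory genes 12 fell and none rose in jazD against Col-0, with a median of -0.36. *CAT2*, the main leaf catalase, fell by 0.89 (edgeR adjusted p = 3.68e-12). *GDCP1* and *GDCP2*, for the P protein of glycine decarboxylase, fell by 0.68 and 0.64 (edgeR adjusted p = 2.75e-11 and 7.88e-11), and *GLU1*, for ferredoxin-dependent glutamate synthase, fell by 0.71 (edgeR adjusted p = 2.38e-10). In cdk8-1 3 rose and 4 fell, and in jazD cdk8-1 against jazD 9 rose and 2 fell.

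Of 9 genes that carry triose phosphate into starch and sucrose, 6 fell and none rose in jazD, 6 rose and 1 fell in cdk8-1, and 7 rose and none fell in jazD cdk8-1 against jazD. *GBSS1*, for granule-bound starch synthase, had the largest steps, at -1.15, 0.44 and 1.01 in these comparisons (edgeR adjusted p = 4.95e-10, 0.00015 and 6.72e-09). *PGM1*, for the plastid phosphoglucomutase, stood at -0.23, 0.20 and 0.43 (edgeR adjusted p = 0.000131, 0.000952 and 5.41e-08). *SS1*, for a soluble starch synthase, and *APL1*, for a large subunit of ADP-glucose pyrophosphorylase, fell by 0.27 and 0.24 in jazD (edgeR adjusted p = 3.1e-05 and 7.93e-05). The genes of sucrose synthesis did not pass the test in jazD, with 0.06 for the cytosolic fructose bisphosphatase and 0.05 for *SPSA1*, a sucrose phosphate synthase (edgeR adjusted p = 0.246 and 0.391). Nor did *APS1*, for the small subunit of ADP-glucose pyrophosphorylase, at -0.04 (edgeR adjusted p = 0.475).

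Genes for the folding, assembly and redox control of these enzymes did not move as a block. Of 6 Rubisco folding genes 3 fell and 1 rose in jazD. The falls were those of the chaperonin subunits *CPN60B2*, *CPN60B1* and *CPN60A1*, at -0.60, -0.31 and -0.22 (edgeR adjusted p = 1.67e-09, 4.16e-05 and 0.000256), and the rise that of *RBCX1*, for an assembly chaperone, at 0.60 (edgeR adjusted p = 2.86e-07). *RBCX1* moved the opposite way in cdk8-1, at -0.66 (edgeR adjusted p = 4.79e-07). Of 9 genes of the thioredoxin system, which activates Calvin cycle enzymes in the light, 3 fell and none rose in jazD: *TRXF2*, *NTRC* and *TRXF1*, at -0.26, -0.20 and -0.18 (edgeR adjusted p = 0.000444, 0.000531 and 0.00515). In cdk8-1 4 fell and 1 rose, the riser being AT2G04700, at 0.22 there and 0.12 in jazD (edgeR adjusted p = 0.00251 and 0.0555).

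The photosystem and light-harvesting genes had another balance of calls, given here for comparison only. Of 38, 15 fell and none rose in jazD against Col-0 (median -0.10), 28 fell and none rose in cdk8-1 (median -0.28), and 2 rose and 21 fell in jazD cdk8-1 against jazD (median -0.16). The smallest adjusted p in jazD were those of *LHCB2.3*, *PSBS*, *PSBO2* and *PSAD1*, at -0.57, -0.39, -0.29 and -0.21 (edgeR adjusted p = 6.53e-08, 4.27e-07, 6.69e-05 and 0.00263). In the same 3 comparisons the 10 carbon-fixation genes had medians of -0.43, -0.03 and 0.17. The difference between the lists was not tested.

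Among 10 genes known as regulators of photosynthesis genes, 6 fell and 1 rose in jazD. *GNC*, for a GATA factor that promotes chloroplast development, had 46.6 CPM in Col-0 on average, 46.5 in cdk8-1, 19.7 in jazD and 38.6 in jazD cdk8-1. Its difference was -1.24 ± 0.06 in jazD against Col-0 and 0.97 ± 0.07 in jazD cdk8-1 against jazD (SE, edgeR adjusted p = 1.19e-12 and 1.82e-10). *GLK2*, for a factor that drives photosynthesis genes, fell by 0.60 in jazD and by 0.53 in cdk8-1 (edgeR adjusted p = 1.27e-09 and 2.75e-08), and its interaction was 0.74 ± 0.07 (SE, edgeR adjusted p = 8.44e-08). Its paralogue *GLK1* was the 1 riser in jazD, at 0.22, and fell by 0.18 in cdk8-1 (edgeR adjusted p = 0.000596 and 0.00557). *HYH*, a homologue of the light-signalling factor HY5, fell by 1.03 in jazD and rose by 1.00 in cdk8-1 (edgeR adjusted p = 2.9e-05 and 5.79e-06), at a mean of 3.72 CPM in Col-0. *GUN1*, of plastid-to-nucleus signalling, fell by 0.28 in jazD (edgeR adjusted p = 2.74e-05).

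Several marker lists moved with the genotypes. Of 9 senescence markers tested, 7 were higher and none lower in jazD than in Col-0, with summed levels of 161 to 180 CPM in Col-0, 161 to 170 in cdk8-1, 264 to 336 in jazD and 194 to 212 in jazD cdk8-1. In cdk8-1 against Col-0, 1 was higher and 4 lower (median -1.02), and in jazD cdk8-1 against jazD 1 was higher and 7 lower (median -1.56). Of the 9 in jazD against Col-0, *FRK1*, *SAG21*, *PPH* and *PAO* stood at 3.62, 2.89, 0.74 and 0.33, beside a median of 0.74. Of 14 clock genes 7 rose and 6 fell in jazD, among them *PRR9* at -1.77, *CCA1* at -1.58, *LUX* at 1.57 and *TOC1* at 1.11. In cdk8-1 2 rose and 7 fell, and in jazD cdk8-1 against jazD 5 rose and 6 fell. The list summed to 647 to 705 CPM in Col-0, 590 to 629 in cdk8-1, 802 to 829 in jazD and 648 to 657 in jazD cdk8-1. All 5 phloem markers fell in jazD and in cdk8-1, from 760 to 799 CPM in Col-0 to 592 to 640 in jazD, 448 to 474 in cdk8-1 and 416 to 419 in jazD cdk8-1, where 4 were lower than in jazD and none higher. In jazD *APL*, *AHA3*, *PP2-A1* and *SEOR1* stood at -0.52, -0.50, -0.43 and -0.28. Guard cell markers summed to 88.0 to 91.1 CPM in Col-0, 103 to 106 in cdk8-1, 70.7 to 79.2 in jazD and 104 to 115 in jazD cdk8-1. Of 6, 1 rose and 1 fell in jazD (*FAMA* at 0.37 and *KAT1* at -1.25, with *GORK* and *SLAC1* not called at -0.29 and -0.15). In cdk8-1 2 rose and 1 fell, and in jazD cdk8-1 against jazD 5 rose and none fell (median 0.41).

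Of 6 mesophyll markers, among them *RBCS1A* and *RBCS2B* themselves, 3 fell and none rose in jazD. The falls were those of *CA1* at -0.79, *RBCS2B* at -0.57 and *LHCB2.2* at -0.20. In cdk8-1, 1 rose and 4 fell, and in jazD cdk8-1 against jazD 1 rose and 2 fell. Their summed levels were 59162 to 62517 CPM in Col-0, 55464 to 62327 in cdk8-1, 52964 to 59374 in jazD and 52092 to 56608 in jazD cdk8-1. The part of senescence, the clock or cell type in the levels of the carbon-fixation genes was not tested.

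The genes most like the 10 in their pattern over the 12 libraries were ranked by the root mean square difference in log2 CPM, each gene taken relative to its Col-0 mean. The ranking held 5278 genes whose average log2 CPM was 5 or more. Closest to the mean of the 10 were AT3G14420, a glycolate oxidase gene (0.030), *SQD2* (0.035), *RABE1b* (0.042), AT5G65840 and AT4G35250 (both 0.045). Closest to *RCA* alone were AT5G64940 (*OSA1*, 0.050), the remorin family gene AT2G41870 (0.051), AT1G66330 (0.053), AT1G30690 (0.062) and *CDF3* (0.067). For AT5G64940 the log2 difference in jazD against Col-0 was -0.74 and that in jazD cdk8-1 against jazD 0.39, beside -0.71 and 0.35 for *RCA*. This likeness is a description over libraries that share their genotypes.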

How the data were processed

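The authors deposited expected counts and TPM for each gene; the submitters' processing notes name RSEM 1.2.25 and the build TAIR10. An aligner and a strand setting were not given in the sources used here. Of the deposited expected counts 96.58% were whole, against 60% of those of the 10 genes, and all were rounded. The rounded counts entered edgeR 4.0.16 under R 4.3.3 (filterByExpr, TMM factors of 0.9543 to 1.0557, quasi-likelihood, 1 mean per genotype, all 12 libraries, 2-sided, Benjamini-Hochberg over 19059 genes, called at 0.05). The SE is the fold divided by the root of F. The *RBCS* sum replaced its copies in a separate fit. Related genes were named by rule, up to 4 with the smallest adjusted p in jazD against Col-0 per list, and others after their values were seen. The 10 genes and the lists were chosen with earlier results of these data known, and 8 loci without a matching name were left out of the lists. Alternatives used limma 3.58.1 on log2(TPM + a pseudocount of 0.1 or 1) and DESeq2 1.42.0. The edgeR and limma steps were tested on simulated data. Sequences are from the RefSeq TAIR10.1 genome, aligned with Biopython 1.88. The study's notes name TAIR10, the files hold no coordinates, and loci were matched by identifier. Replicate pairs of a genotype differed by more than sampling noise (chi-square per degree of freedom 1.93 to 4.87). Library totals were 17583465 to 21030372.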

Additional observations from a re-analysis of the deposited data

Results flagged for a closer look

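For 3 genes the effect of losing CDK8 differed between jazD and plants with intact JAZ genes by edgeR's test of that difference. This difference was 0.49 for *RCA*, 0.32 for *GAPB* and 0.20 for *SBPASE*. In CPM *RCA* was lower in cdk8-1 than in Col-0 and higher in jazD cdk8-1 than in jazD in all 3 libraries. The lower level in cdk8-1 was the weaker part, since its call was lost in 6 of 12 fits without 1 library. In TPM the *RCA* libraries overlapped, at 5253 to 5677 in Col-0 and 5164 to 5336 in cdk8-1. The interaction calls of *RCA* and *GAPB* held in all 12 fits without 1 library, and that of *SBPASE* was lost in 8 of them.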

How the results depend on the processing

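Of the calls in jazD against Col-0 and jazD cdk8-1 against Col-0, none was lost in any fit without 1 library. The members called in cdk8-1 against Col-0 (5) ranged from 1 to 5 without 1 library and those of the interaction (3) from 2 to 5. With the replicate number as a block, 3 were called in cdk8-1 against Col-0 and 2 in the interaction (*SBPASE* 0.20, adjusted p = 0.0515), and *RBCS1B* (0.17), *RCA* (-0.14) and, against cdk8-1, *GAPA* (-0.14) lost their calls. Replicate numbers did not pair the samples: same-numbered libraries of different genotypes correlated at -0.12 to 0.13, and 2 of 12 correlated best with their own number. In jazD cdk8-1 against jazD (5), 9 were called with library totals and 9 with limma on either TPM scale, which gave 7 in the interaction. The *RBCS* sum in jazD cdk8-1 against Col-0 (-0.15) was -0.38 over the chromosome 5 copies, an alternative chosen after seeing the data. *RBCS2B* in cdk8-1 (-0.37) turned to 0.11 (adjusted p = 0.219) in the sum of the 4 copies, by construction. Scaling moved the share of higher calls among all genes. In cdk8-1 against Col-0 it was 45.9% with TMM, 66.8% with library totals and 69.0% or 69.4% with TPM. In jazD cdk8-1 against jazD it was 47.1%, 63.5% and 76.0% or 75.7%. In jazD against Col-0 TPM moved it from 51.0% to 37.6% or 37.9%, in jazD cdk8-1 against Col-0 from 50.4% to 67.0% or 66.8% and in the interaction from 49.3% to 61.7% or 59.7%. In jazD cdk8-1 against cdk8-1 library totals moved it from 53.2% to 41.7%. RLE size factors changed no call of the 10 genes, DESeq2 added *GAPB* in jazD cdk8-1 against Col-0, and no count filter added *RBCS2B* in jazD cdk8-1 against jazD. With only the compared genotypes in the fit, *RCA* in cdk8-1 (adjusted p = 0.0677) and *GAPA* in jazD cdk8-1 against cdk8-1 (0.0548) were not called. Ratios and shares have other levels in TPM, but the log2 change of each from Col-0 moved by less than the SD of the Col-0 libraries. Depth limits little here; 3 pools per genotype limit precision.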
